A study of Homo sapiens with 6 samples.

Results

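The nonsense-mediated decay factors UPF1, UPF2, UPF3A, UPF3B, SMG1, SMG5, SMG6, SMG8 and SMG9 were taken by gene symbol from the deposited read counts and FPKM values. FPKM is a level scaled by gene length and sequencing depth. The gene lengths behind it are not given in the sources used here. All 9 were among the 30618 genes listed with counts, and all 9 passed the filter on low counts that left 16749 genes for testing. The cells were ARPE-19, an established human line of retinal pigment epithelium, and every library came from cells kept in 50 mM glucose. The NC group (3 libraries) was transfected with a non-targeting siRNA and the siEIF1 group (3 libraries) with 1 siRNA against EIF1, the initiation factor that helps the small ribosomal subunit choose a start codon. The study prepared 3 independent biological replicates per group, sequenced the polyadenylated RNA of all 6 in a single run, and asked how loss of EIF1 changes expression and splicing under high glucose. All libraries come from 1 cell line, 1 siRNA per group and 1 glucose concentration.

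Nonsense-mediated decay removes mRNAs on which a ribosome stops too early, and it also lowers many normal transcripts with upstream reading frames, long 3′ UTRs or an intron after the stop codon. UPF1 is the RNA helicase at its centre, UPF2 and UPF3B link UPF1 to exon junction complexes left by splicing, and the kinase SMG1, held in check by SMG8 and SMG9, phosphorylates UPF1. Phosphorylated UPF1 recruits the endonuclease SMG6 and the adaptor SMG5, and several of these factors' own transcripts are known decay targets, which is described as a feedback loop that adjusts the pathway.

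EIF1, measured as a check of the labels, was lower in every siEIF1 library than in any NC library. Its FPKM was 294, 281 and 281 in the NC libraries and 24.3, 22.7 and 23.5 in the siEIF1 libraries, and its counts fell by 3.58 on the log2 scale (standard error 0.055, adjusted p = 1.08e-13 by the quasi-likelihood test of edgeR, with Benjamini-Hochberg adjustment). The libraries held 26499929 to 31431479 counts, and pairs within a group differed beyond counting noise, their chi-square over genes being 2.87 to 12.95 times its degrees of freedom. Of 10 listed markers of retinal pigment epithelium, RPE65 and TTR were absent from the genes with counts. Of the 8 measured, 7 were tested. KRT8, KRT18 and RLBP1 passed higher in siEIF1 (42.9%, beside 10.2% of all tested genes higher and 20.6% in either direction). BEST1, PMEL, MITF and OTX2 did not pass. TYR was under 0.1 FPKM in all 6 libraries. RLBP1 was at a low level, with 0.27, 0.17 and 0.27 FPKM in NC and 0.69, 0.62 and 0.73 in siEIF1. BEST1, the chloride channel of this epithelium, went from 70.8, 66.6 and 60.5 FPKM in NC to 62.1, 55.0 and 38.8 in siEIF1, with overlap (log2 fold change -0.32, standard error 0.13, adjusted p = 0.106 in edgeR's test), and it passed without siEIF1 replicate 1 (0.0113) and with no filter on low counts (1.75e-07). The summed FPKM of these markers ran from 521 to 540 in NC and from 563 to 610 in siEIF1. Most of this sum was KRT18 (mean 326.5 FPKM in NC and 382.0 in siEIF1) and KRT8 (113.0 and 131.5). The call of KRT8 was lost without NC replicate 1 (adjusted p = 0.0505) or siEIF1 replicate 2 (adjusted p = 0.0528). Of 6 measured markers of blood, endothelial and nerve cells, 5 were under 0.1 FPKM in all libraries, and the summed level was 0.91 to 1.02 FPKM in NC and 0.97 to 1.16 in siEIF1. The part of these marker differences in the results was not tested.

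Since EIF1 acts on start codons, the first 24 coding bases of each decay factor were read from its GENCODE release 44 canonical transcript on GRCh38. Each line gives the position of the start codon, the strand and the exon, with the start codon and the base after it in capitals:
UPF1, chr19:18832210-18832212, plus strand, exon 1: ATGAgcgtggaggcgtacgggccc
UPF2, chr10:12035421-12035423, minus strand, exon 2: ATGCcagctgagcgtaaaaagcca
UPF3A, chr13:114281640-114281642, plus strand, exon 1: ATGCgctcggaaaaggagggggcc
UPF3B, chrX:119852926-119852928, minus strand, exon 1: ATGAaggaagagaaggagcacagg
SMG1, chr16:18926039-18926041, minus strand, exon 1: ATGAgccgcagagccccggggtct
SMG8, chr17:59210052-59210054, plus strand, exon 1: ATGGctggtcccgtgagcttgcga
SMG9, chr19:43750739-43750741, minus strand, exon 2: ATGTctgagtctggacacagtcag
SMG5, chr1:156282678-156282680, minus strand, exon 1: ATGAgccaaggcccccccacaggg
SMG6, chr17:2303718-2303720, minus strand, exon 1: ATGGcggaagggctggagcgtgtg
All 9 open with ATG in their canonical transcript. A purine stood 3 bases before the start codon in 9 of 9, as in 86.7% of 13110 tested protein-coding genes, and a G directly after it in 2 of 9 (SMG8 and SMG6), against 53.9%. An ATG upstream of the start codon was present in 4 of 9 (UPF2, SMG1, SMG9 and SMG5), against 41.5%. Of the other features linked to decay, a 3′ UTR of at least 1000 bases was present in 6 of 9, against 58.5%, and a splice junction over 50 bases after the stop codon in 0 of 9, against 1.35%. The longest 3′ UTR was that of SMG1 (4709 bases) and the shortest that of SMG8 (228 bases).

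The decay factors were expressed at moderate levels, and their order was the same in both groups. The order depends on the gene lengths used for FPKM, and other lengths could change it. In NC replicate 1, UPF3A had 1648 counts and 8.81 FPKM, with a canonical transcript of 2370 bases. SMG5 had 2438 counts and 14.14 FPKM, with 4559 bases. UPF3A is shorter but did not have more FPKM per count, so the lengths used were not those of the canonical transcripts. On this scale SMG5 was highest at 14.5 ± 0.36 (SD, n = 3) in NC, followed by UPF1 at 8.84 ± 0.37 and UPF3A at 8.47 ± 0.32. SMG6 (5.01 ± 0.62) and SMG9 (4.90 ± 0.12) came next, then UPF3B (4.05 ± 0.33), SMG8 (3.10 ± 0.29) and UPF2 (2.97 ± 0.13), with SMG1 lowest at 2.12 ± 0.12. Among neighbours in this order, the NC libraries of UPF1 and UPF3A overlapped, as did those of SMG6 and SMG9 and those of SMG8 and UPF2. In siEIF1, UPF1 and UPF3A still overlapped, SMG6 lay above SMG9 in every library, and UPF3B, SMG8 and UPF2 formed a run in which neighbours overlapped. Among all tested genes, the FPKM of SMG1 stood at percentile 46.1 and that of SMG5 at percentile 86.8.

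**Figure D1:**
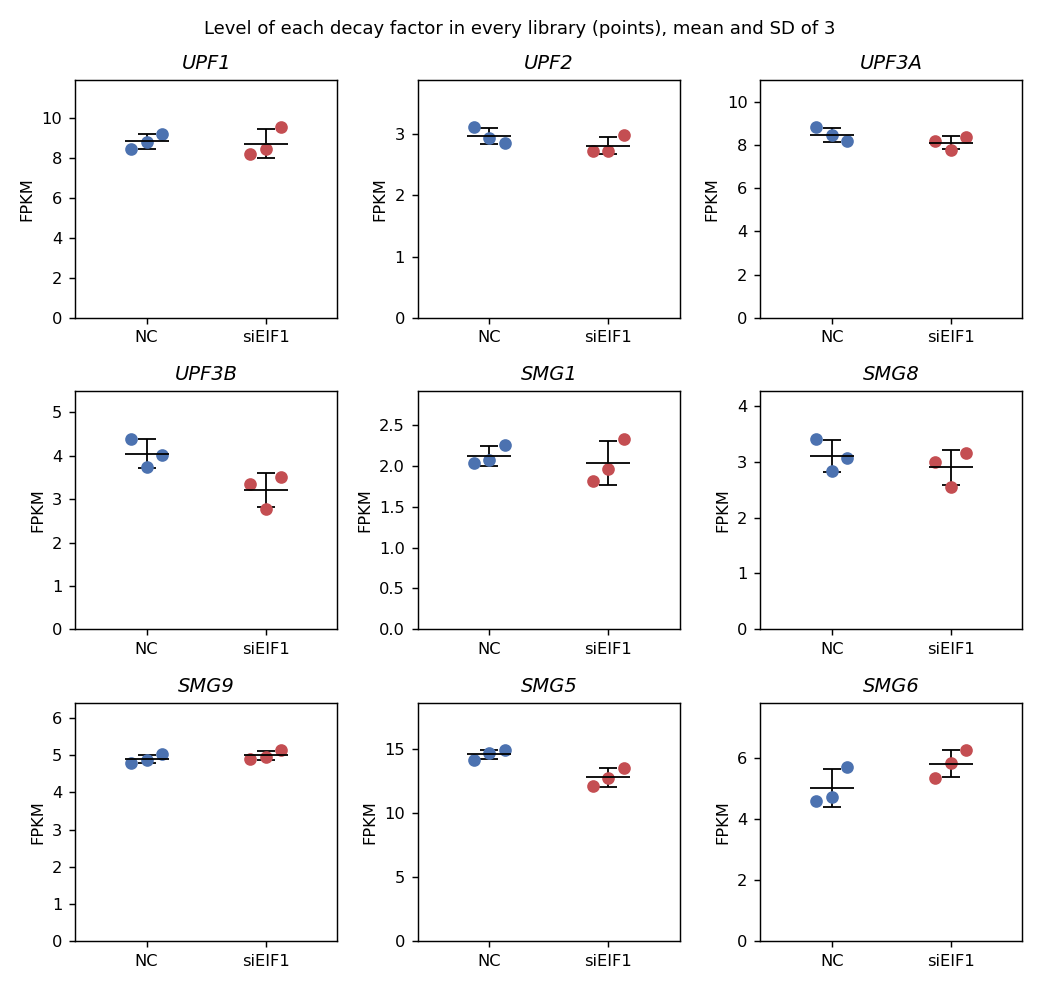
FPKM (y axis, from 0) of each decay factor in the NC (blue) and siEIF1 (red) libraries; each point is 1 library, the long bar is the mean and the short bars are 1 SD (n = 3). UPF3B and SMG5 are lower in every siEIF1 library than in any NC library, SMG6 is shifted upward with overlap, and the other 6 factors overlap.

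After the knockdown, 3 of the 9 factors passed an adjusted p under 0.05, with UPF3B and SMG5 lower and SMG6 higher. The number that passed was 0 without siEIF1 replicate 2, 1 without any 1 of the NC libraries, 2 without siEIF1 replicate 1 or 3, and 1 in limma on FPKM. Among all tested genes 20.6% passed (3446 genes, and 2242 without siEIF1 replicate 2), 10.2% higher and 10.4% lower. The changes were small: the log2 fold changes of the 9 ranged from -0.31 to 0.24, with a median of -0.045 beside 0.0033 over all tested genes. Without siEIF1 replicate 3 the median of the 9 was -0.0845, and without NC replicate 1 it was -0.0216. When the fold limit of the study was added (above 2 or below 0.5), 0 of 9 were called by edgeR, 0 at an unadjusted p under 0.05, and 0 by DESeq2 or limma, while 1.71% of all tested genes were called. On CPM, the counts scaled to a common library size, the groups did not overlap for 3 of 9, beside 37.1% of all tested genes. Among the 6930 tested genes with a mean count in the range of the 9 factors, 26.3% passed the adjusted p and 44.4% did not overlap.

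**Figure D2:**
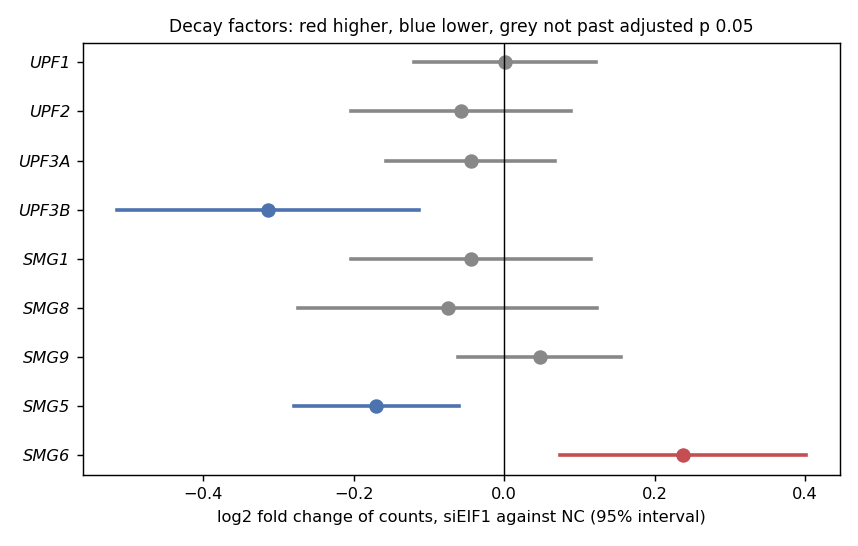
Log2 fold change of counts in siEIF1 against NC (x axis) for each decay factor, with its 95% confidence interval from edgeR's quasi-likelihood fit; blue is lower and red higher at an adjusted p under 0.05, and grey did not pass. Intervals of UPF3B and SMG5 lie below 0, that of SMG6 lies above 0, and the other 6 cross 0.

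Among the core factors, UPF3B fell while UPF1, UPF2 and UPF3A did not pass the test. UPF3B, the X-linked protein that binds the exon junction complex, stood at 4.39, 3.74 and 4.03 FPKM in the NC libraries and at 3.36, 2.77 and 3.52 in the siEIF1 libraries. Every siEIF1 library was below every NC library, and siEIF1 replicate 2 was the lowest. The log2 fold change was -0.31 (standard error 0.093, 95% interval -0.51 to -0.11), so that its counts fell by 19.5% (adjusted p = 0.0291 in edgeR's test). The call was lost without NC replicate 1 (adjusted p = 0.123), NC replicate 3 (0.0689) or siEIF1 replicate 2 (0.131) and in limma on FPKM (0.0698 and 0.0658 with a pseudocount of 1 and 0.1), over a range of 0.00711 to 0.131 across the alternatives. With its mean of 395 counts per library, UPF3B was the least deeply counted of the 9. In bulk RNA, fewer cells that express a gene and less of its RNA per cell cannot be told apart.

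UPF1 (ENSG00000005007.13) was measured at 8.48, 8.82 and 9.21 FPKM in NC and at 8.18, 8.46 and 9.54 in siEIF1. The siEIF1 libraries spanned both sides of the NC range. Its log2 fold change was 0.00071 (95% interval -0.12 to 0.12; adjusted p = 0.995 in edgeR's test), which corresponds to a fold of 0.920 to 1.09. UPF2, the adaptor between UPF1 and the UPF3 proteins, was at 3.11, 2.94 and 2.86 FPKM in NC and at 2.73, 2.73 and 2.98 in siEIF1, with overlap and a log2 fold change of -0.058 (95% interval -0.20 to 0.089; adjusted p = 0.609).

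UPF3A is the autosomal paralogue of UPF3B, binds the same site of UPF2, and is known to be held at a low protein level while UPF3B is present. Its transcript was at 8.81, 8.44 and 8.17 FPKM in NC and at 8.16, 7.78 and 8.36 in siEIF1, with overlapping groups and a log2 fold change of -0.045 (95% interval -0.16 to 0.068; adjusted p = 0.605 in edgeR's test). Reads of its annotated pseudogenes were few, at 1.30% to 2.31% of the summed counts, and adding them moved the log2 fold change only to -0.0402. The ratio of UPF3A to UPF3B in FPKM was 2.01, 2.26 and 2.03 in NC and 2.43, 2.81 and 2.38 in siEIF1. Its size depends on the gene lengths used: in counts it was 3.75, 4.21 and 3.78 in NC and 4.53, 5.25 and 4.44 in siEIF1. Each siEIF1 library had a higher ratio than any NC library, by 0.27 on the log2 scale (SD 0.094 in NC and 0.13 in siEIF1, n = 3). A two-sided exact permutation test gave p = 0.1, the smallest value that 3 against 3 libraries allow.

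Across the 6 libraries, the tested genes closest to UPF3B were HSPH1, a heat shock chaperone, SLC22A3, an organic cation transporter, and SNTB1, a syntrophin. The measure was the root mean square difference of log2 CPM centred on each gene's mean, which was 0.0168 for HSPH1, 0.0249 for SLC22A3 and 0.0274 for SNTB1 beside a median of 0.22 over 13382 genes with a mean count of at least 50. Their log2 fold changes were -0.33, -0.31 and -0.27. The calls of SLC22A3 and SNTB1 were lost without NC replicate 1 (adjusted p = 0.0947 and 0.129) or siEIF1 replicate 2 (0.0955 and 0.14), and that of SNTB1 also without NC replicate 3 (0.0801). In limma on FPKM neither was called (adjusted p = 0.0595 to 0.104). Within the 9 factors, the closest pair was UPF2 and UPF3A (0.0286) and the most distant pair UPF3B and SMG6 (0.329). These 6 libraries are shared by all of the comparisons, so the values are a description.

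Of the 3 members of the kinase complex, 0 passed edgeR's test, beside 20.6% of all tested genes. At an unadjusted p under 0.05 there were 0, and 0 passed in DESeq2 or limma. A count of 0 among 3 genes does not show that the complex was unchanged. SMG1 was at 2.04, 2.07 and 2.26 FPKM in NC and at 1.81, 1.96 and 2.33 in siEIF1. The siEIF1 libraries held both the lowest and the highest value, and the log2 fold change was -0.045 (95% interval -0.20 to 0.11; adjusted p = 0.728). Its sign turned to 0.032 without siEIF1 replicate 1. SMG8 was at 3.41, 2.83 and 3.07 FPKM in NC and at 3.0, 2.55 and 3.16 in siEIF1, with a log2 fold change of -0.075 (95% interval -0.27 to 0.12; adjusted p = 0.624). The annotated exons of SMG8 share 422 of their 3744 bases with another protein-coding gene on the same strand, which had a mean count of 179. What part this overlap had in the SMG8 counts was not tested. SMG9, the partner SMG8 needs to bind the kinase, had the smallest standard error of the 9 (0.050), with FPKM of 4.8, 4.88 and 5.03 in NC and 4.91, 4.96 and 5.13 in siEIF1. On CPM the lowest siEIF1 library of SMG9 (48.0) was just above the highest NC library (47.9), while on FPKM the groups overlapped, and its log2 fold change of 0.047 did not pass (95% interval -0.062 to 0.16; adjusted p = 0.569).

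SMG1 has annotated pseudogenes on chromosome 16 that were copied with its exons, and 7 of them were tested. Together they took 24.3%, 25% and 24.6% of the summed SMG1 and pseudogene counts in NC and 18.2%, 20.9% and 22.2% in siEIF1, a lower share in every siEIF1 library. SMG1P7 fell from 10.1, 11.2 and 10.4 CPM in NC to 5.37, 4.75 and 6.80 in siEIF1, without overlap (log2 fold change -0.91, standard error 0.12, adjusted p = 2.10e-04 in edgeR's test). The other 6 pseudogenes had log2 fold changes between -0.51 and 0.28 and did not pass. Summing SMG1 with its pseudogenes gave a log2 fold change of -0.12 (standard error 0.082, adjusted p = 0.344), beside -0.045 for SMG1 alone.

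The authors counted uniquely mapped reads, so the sequence shared by SMG1 and its copies bears on which gene a read was given to. Of the 15913 windows of 150 bases (1 read length) in the SMG1 transcript, 6.34% occurred letter for letter in at least 1 pseudogene and 1.12% in SMG1P7. A stretch of 90 transcript bases across exons 8 and 9 of SMG1 serves as an example. The stretch was picked for having only a few differences from SMG1P7, so it does not measure how close the copies are. It is given with its counterpart in SMG1P7 from GENCODE release 44 on GRCh38, and the genomic spans include the intron between both exons:
SMG1, chr16:18884084-18885095, minus strand: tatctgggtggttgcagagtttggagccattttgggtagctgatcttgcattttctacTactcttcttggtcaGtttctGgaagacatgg
SMG1P7, chr16:70245533-70246543, minus strand: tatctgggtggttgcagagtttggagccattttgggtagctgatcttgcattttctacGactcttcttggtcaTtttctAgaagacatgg
Capitals mark the 3 bases that differ, T59G, G74T and G80A, counted from 1 at the first base shown, with the base of SMG1 first. What part read assignment had in the difference between SMG1 and SMG1P7 was not tested.

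**Figure D3:**
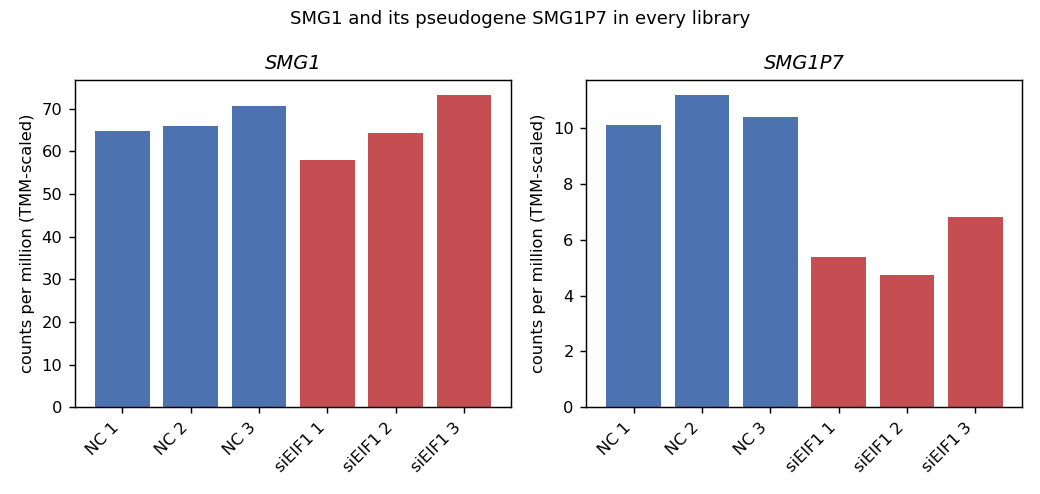
Library-scaled CPM (y axes, from 0) of SMG1 and SMG1P7 in each of the 3 NC (blue) and 3 siEIF1 (red) libraries, 1 bar per library. SMG1 overlaps between the groups, while SMG1P7 lies between 10.1 and 11.2 in NC and between 4.75 and 6.80 in siEIF1.

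The effectors that act on phosphorylated UPF1 went in opposite directions. SMG5, which brings in decapping and deadenylation, stood at 14.14, 14.62 and 14.85 FPKM in NC and at 12.05, 12.67 and 13.51 in siEIF1. All siEIF1 libraries were below all NC libraries, and the log2 fold change was -0.17 (standard error 0.051, 95% interval -0.28 to -0.061; adjusted p = 0.0300 in edgeR's test) and the counts fell by 11.1%. The call was lost without NC replicate 2 (adjusted p = 0.0932), NC replicate 3 (0.108), siEIF1 replicate 1 (0.119) or siEIF1 replicate 2 (0.0658), over a range of 0.0102 to 0.119 across the alternatives, and both fits of limma on FPKM kept it.

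SMG6, the endonuclease that cuts the target mRNA near the stop codon, was at 4.58, 4.72 and 5.72 FPKM in NC and at 5.36, 5.85 and 6.25 in siEIF1. NC replicate 3 stood above siEIF1 replicate 1, so the groups overlapped. The log2 fold change was 0.24 (standard error 0.076, 95% interval 0.074 to 0.40; adjusted p = 0.0408 in edgeR's test), or 17.9% more. The call was lost without NC replicate 1 (adjusted p = 0.170), NC replicate 2 (0.164), siEIF1 replicate 2 (0.140) or siEIF1 replicate 3 (0.0905) and in limma on FPKM (0.173 and 0.165), over a range of 0.00215 to 0.173 across the alternatives.

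SMG6 shares 2419 of its 10568 annotated exon bases with HIC1, a transcriptional repressor gene on the opposite strand of chromosome 17. HIC1 was at 15.9, 14.7 and 12.3 CPM in NC and at 23.5, 20.7 and 19.9 in siEIF1, higher in every siEIF1 library (log2 fold change 0.58, standard error 0.097, adjusted p = 9.11e-04 in edgeR's test). The libraries were made with strand marking, but the strand setting of the counting is not given in the sources used here, and the part of HIC1 reads in the SMG6 counts was not tested. The mean of SMG6 rose from 64.5 to 76.0 CPM and that of HIC1 from 14.3 to 21.4 CPM.

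The ratio of SMG6 to SMG5 in FPKM, chosen after the values were seen and so given without a test, was 0.324, 0.323 and 0.385 in NC and 0.445, 0.462 and 0.463 in siEIF1. NC replicate 3 was the highest of the control libraries and still below all siEIF1 libraries.

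**Figure D4:**
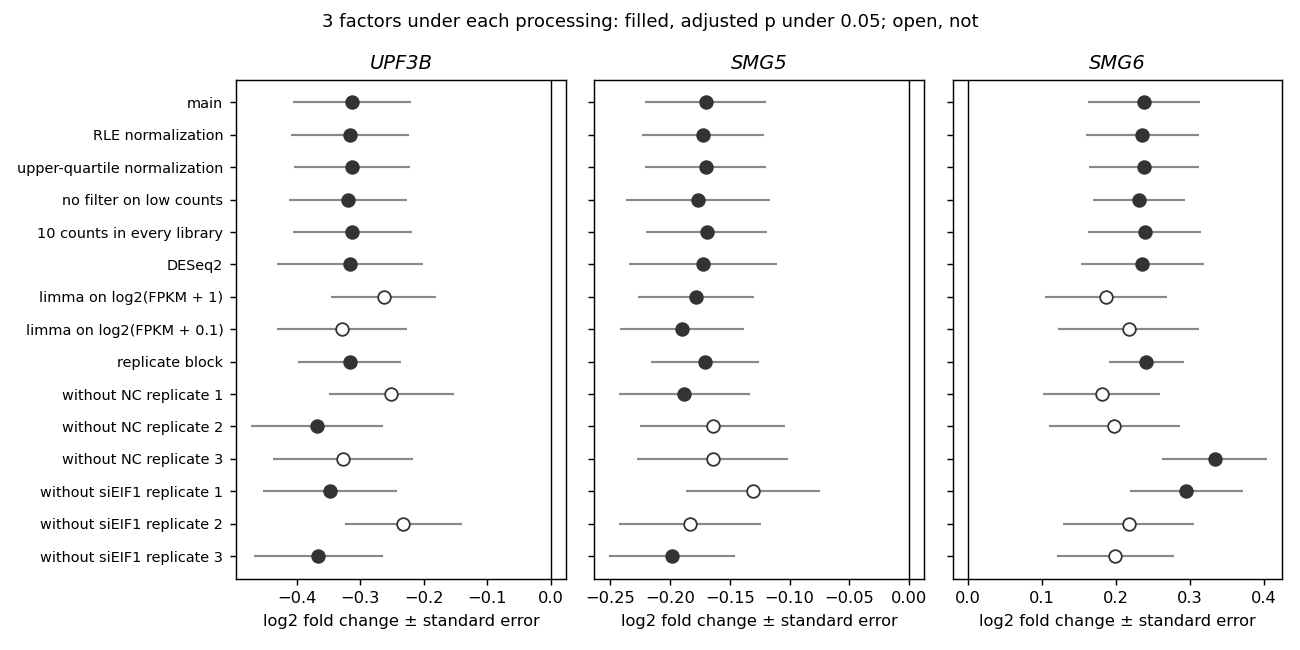
Log2 fold change ± standard error (x axis) of UPF3B, SMG5 and SMG6 under each processing (y axis); filled points passed an adjusted p under 0.05 and open points did not. All points of UPF3B and SMG5 lie below 0 and all of SMG6 above 0, while 5, 4 and 6 of the 14 alternatives respectively are open.

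Grouped by whether the transcript is itself known as a decay target, UPF1, UPF2, UPF3B, SMG1, SMG5 and SMG6 made up 6 of the 9. Of these, 1 passed higher and 2 lower, beside 10.2% higher and 10.4% lower among all tested genes. Their median log2 fold change was -0.051, with a range of -0.31 to 0.24. The other 3 (UPF3A, SMG8 and SMG9) ranged from -0.075 to 0.047 with a median of -0.045. Those of the known targets that passed did not share 1 direction.

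Beside the 9 factors, 8 lists of the pathway and its known targets held 110 genes, all tested. Of these, 8 passed higher and 28 lower (32.7% in either direction, beside 20.6% of all tested genes), with a median log2 fold change of -0.058. Among the 6930 tested genes in the count range of the 9 factors, the share that passed was higher, at 26.3%. That range does not hold all of the listed genes. The number higher was 5 without NC replicate 2, NC replicate 3 or siEIF1 replicate 2, and 5 in limma on FPKM. By list, the median ranged from -0.00079 for the exon junction complex to -0.39 for snoRNA host transcripts.

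**Figure D5:**
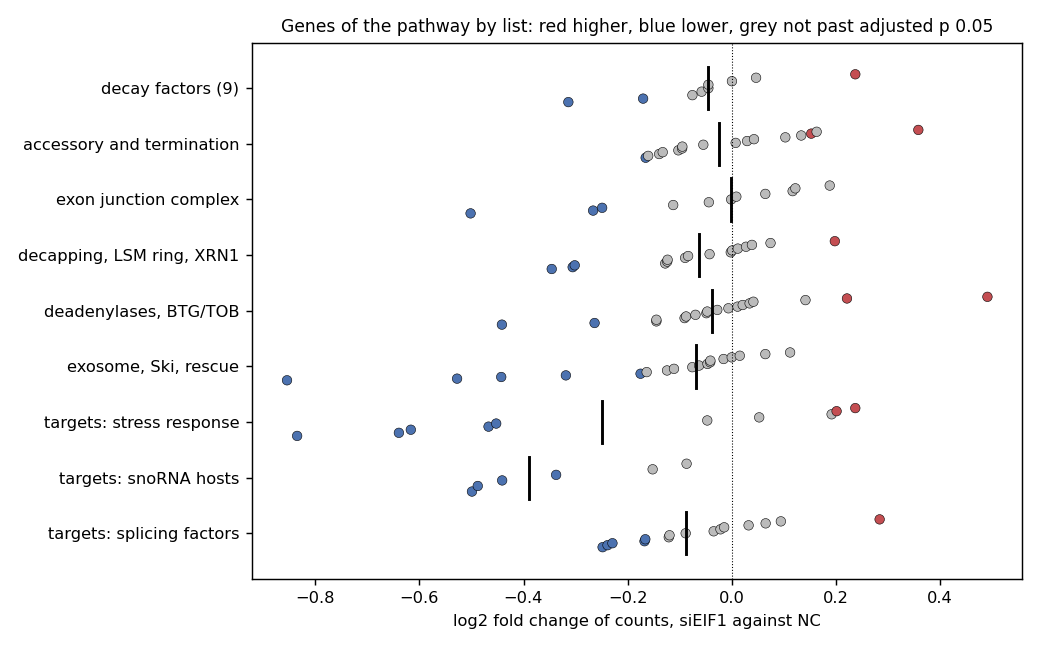
Log2 fold change of counts in siEIF1 against NC (x axis) for every tested gene of the 9 decay factors and the 8 other lists (y axis); red and blue points passed an adjusted p under 0.05, grey points did not, and black bars are list medians. The points of the decay factors lie between -0.31 and 0.24, and the lowest medians are those of snoRNA hosts (-0.39) and stress response targets (-0.25).

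Among 16 other factors of decay and termination, 2 passed higher and 1 lower (18.8%, beside 20.6% of all tested genes). CTIF, which links the nuclear cap-binding complex to translation, rose by 0.36 on the log2 scale (standard error 0.072), and the poly(A)-binding protein PABPC4 rose by 0.15. RUVBL1, an ATPase that associates with SMG1, fell by 0.17, and NCBP2 of the cap-binding complex had a log2 fold change of -0.13 that did not pass (adjusted p = 0.0594 in edgeR's test) but passed in limma on FPKM (0.0322 and 0.0330). The count of 2 higher dropped to 1 without NC replicate 2 or 3 or siEIF1 replicate 2, and PABPC4 was not called without any 1 of NC replicates 1, 2 and 3 and siEIF1 replicates 1 and 2 (adjusted p = 0.0706 to 0.130), with no filter on low counts (0.0660) or in limma on FPKM (0.0676 and 0.0680). RUVBL1 was not called without NC replicate 1 (adjusted p = 0.123), NC replicate 3 (0.0759), siEIF1 replicate 1 (0.0614), siEIF1 replicate 2 (0.0952) or siEIF1 replicate 3 (0.0513), or in limma on log2(FPKM + 1) (0.0509).

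Of 11 genes of the exon junction complex, to which UPF3B binds, 3 fell (27.3%, beside 20.6% of all tested genes). In the main edgeR fit, DESeq2 or limma 0 passed higher (2 higher at an unadjusted p under 0.05 in the main fit). The core subunit MAGOH fell by 0.27 on the log2 scale and its near-identical paralogue MAGOHB by 0.50 (standard errors 0.068 and 0.089). The authors counted uniquely mapped reads, so reads that fit both genes of this pair equally would be left out. The peripheral protein PNN fell by 0.25 (standard error 0.052). PYM1, which recycles the complex, had a log2 fold change of 0.19 that did not pass (adjusted p = 0.0703 in edgeR's test). It did pass in edgeR without siEIF1 replicate 3 (0.013) and with a block on the replicate number (0.0336). MAGOH was not called without NC replicate 1 (adjusted p = 0.0617).

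Decapping and deadenylation, which SMG5 brings to the target, were described from 1 list each. Of 16 genes of decapping and 5′-to-3′ decay, 1 rose, 3 fell and 12 did not pass. Of all tested genes 20.6% passed, with 10.2% higher and 10.4% lower, and whether this list differed from them was not tested. The 3 that fell were all subunits of the LSM ring. The log2 fold changes were -0.30 for LSM3, -0.31 for LSM4 and -0.35 for LSM5. The decapping enhancer EDC3 rose by 0.20 (standard error 0.057), a call that was lost without any 1 of the NC replicates or siEIF1 replicate 2 (adjusted p = 0.0561 to 0.0936) and in limma on FPKM (0.0745 and 0.0715), and LSM3 was not called without NC replicate 1 (0.0563). Among 18 genes of deadenylation, 22.2% passed, beside 20.6% of all tested genes. BTG2 (0.49) and TOB2 (0.22) rose while the CCR4-NOT subunit CNOT9 (-0.44) and BTG1 (-0.26) fell. TOB2 was not called without NC replicate 2 (adjusted p = 0.0687) or siEIF1 replicate 2 (0.0602), or in limma on FPKM (0.0555 and 0.0532).

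Of 18 genes of the RNA exosome, the Ski complex and ribosome rescue, 5 fell (27.8%, beside 20.6% of all tested genes). In edgeR, DESeq2 or limma 0 rose, and 0 were higher at an unadjusted p under 0.05. EXOSC6 fell from a mean of 13.3 to 7.27 FPKM, by 0.85 on the log2 scale (standard error 0.072). EXOSC8, EXOSC5 and EXOSC9, further subunits of the exosome ring, had log2 fold changes of -0.53, -0.44 and -0.32, and the ribosome rescue factor PELO had -0.17. PELO was not called without NC replicate 1, 2 or 3 or siEIF1 replicate 2 or 3 (adjusted p = 0.0877 to 0.143), nor with upper-quartile normalization (0.0553), no filter on low counts (0.0605) or DESeq2 (0.0694).

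Known substrates of the pathway were described from 3 lists. Among 10 stress response transcripts, 2 passed higher and 5 lower (70.0%, beside 20.6% of all tested genes), with a median of -0.25. DDIT3 fell by 0.84 on the log2 scale, GADD45A fell by 0.62, ATF3 fell by 0.47 and SLC7A11 fell by 0.45, with standard errors of 0.045 to 0.070. The remaining calls, named after their values were seen, were UPP1 (-0.64) and the higher ATF4 (0.24) and BAG1 (0.20), and BAG1 was not called without NC replicate 3 (adjusted p = 0.0546). Of 6 snoRNA host transcripts, 4 fell (66.7%, beside 20.6% of all tested genes): SNHG1 by 0.50, SNHG15 by 0.49, GAS5 by 0.44 and ZFAS1 by 0.34. In edgeR, DESeq2 or limma 0 rose, and 0 were higher at an unadjusted p under 0.05.

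Of 15 splicing factor genes that carry a poison exon or intron, 1 rose and 5 fell (40.0%, beside 20.6% of all tested genes). PTBP1, the polypyrimidine tract-binding protein, rose by 0.28 (standard error 0.046). TRA2B fell by 0.25, SRSF7 by 0.24, RBM39 by 0.23, and SRSF2 and SRSF6 by 0.17 each. The count of 5 lower dropped to 3 without NC replicate 1, NC replicate 3 or siEIF1 replicate 2, where SRSF2 (adjusted p = 0.0604 to 0.0825) and SRSF6 (0.0904 to 0.134) were not called. SRSF6 was also not called without NC replicate 2 (0.0770) or siEIF1 replicate 3 (0.0703). Counts per gene do not separate productive from unproductive isoforms, so the level of the decay-sensitive form of these genes was not measured.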

How the data were processed

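Polyadenylated RNA from 3 NC and 3 siEIF1 cultures was sequenced with paired reads of 150 bases, and libraries were assigned to groups by their titles. Per the labels and the study's methods, the authors trimmed reads with FASTX-Toolkit 0.0.13, aligned them to GRCh38 with HISAT2, and deposited raw counts of uniquely mapped reads per gene. The authors also deposited FPKM values per gene, which cover 30275 of the 30618 genes with counts. The counting program, its strand setting and the annotation release are not given in the sources used here, so counts of overlapping genes and near-identical copies are uncertain.

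Counts were fitted over all 16749 genes passing filterByExpr with edgeR 4.0.16 in R 4.3.3 (TMM scaling, a quasi-likelihood test with group as the only term, p-values adjusted by Benjamini-Hochberg). The standard error was taken from the log2 fold change and its F statistic. The procedure was also run on simulated data. Its planted changes were larger than those of the decay factors, so that run does not bear on changes of their size. The ratio of UPF3A to UPF3B was compared by a two-sided exact permutation test in SciPy 1.17.1. FPKM values were used for levels and, as log2(FPKM + 1) or log2(FPKM + 0.1), in limma 3.58.1.

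Alternatives were RLE and upper-quartile normalization, no filter on low counts, at least 10 counts in every library, DESeq2 1.42.0 (which the study used), a block on the replicate number, limma on FPKM, leaving out each library, and summing SMG1 or UPF3A with their pseudogenes. The 9 factors and all lists were chosen with earlier results of these data known. Named are EIF1, the 9 factors and their pseudogenes, up to 4 genes per list with the smallest p, all genes passing where a list had 6 or fewer, and the 3 genes closest to the factor with the smallest p. HIC1 was added for its exon overlap, after values were seen. Coding starts, exons and transcripts came from GENCODE release 44 on GRCh38 (canonical transcripts), whose gene models may differ from those the authors used. Total counts per library were 26499929 to 31431479, and the standard errors of the 9 factors ran from 0.050 to 0.093 on the log2 scale. Splicing was not analysed here.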

Additional observations from a re-analysis of the deposited data

How the results depend on the processing

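Of 128 refitted values of the 9 factors under the alternatives, 104 kept their direction and their side of the threshold, 15 kept their direction and lost the call, and 9 changed sign. In 8 of these the gene was UPF1 and in 1 it was SMG1. For UPF1, the log2 fold change was -0.00178 with RLE normalization, -0.00596 with no filter on low counts, -0.00177 with DESeq2, -0.0181 and -0.0202 with limma on log2(FPKM + 1) and log2(FPKM + 0.1) and -0.000289 with the replicate block. When 1 library was left out, UPF1 ran from -0.0513 to 0.0454 (below 0 when NC replicate 1 or the siEIF1 replicate numbered 3 was dropped) and SMG1 from -0.137 to 0.0321 (above 0 when siEIF1 replicate 1 was dropped). None of these passed the test, and the cause was not tested. The number of factors with an adjusted p under 0.05 was 3 with either normalization, either filter and DESeq2, 1 with limma on FPKM at either pseudocount, and 0 to 2 when 1 library was left out (0 without siEIF1 replicate 2). The count past the fold limit was 0 throughout. The median log2 fold change of the 9 ran from -0.0845 to -0.0216 when 1 library was left out. Of the other lists, the number of genes higher was 5 with limma on FPKM at either pseudocount and 5 to 9 when 1 library was left out, and the number lower was 22 to 29. EIF1 and the ratio of UPF3A to UPF3B kept their direction throughout, the ratio at 0.198 to 0.327.

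The replicate numbers in the titles were checked for pairing. For this, the log2 CPM of each gene was taken as its deviation from the mean of the library's own group. These deviations correlated between same-numbered libraries with r = 0.149, 0.0946 and 0.128 over 16749 genes. Each library's deviations correlated best with those of its own number, which is a hint from the data and not from the design. With the replicate number as a block, 3 factors passed again, at log2 fold changes of -0.32 for UPF3B, -0.17 for SMG5 and 0.24 for SMG6. In the other lists, 9 genes were higher and 34 lower with the block, beside 8 and 28 without it. NCBP2 (adjusted p = 0.0335), PYM1 (0.0336) and the marker BEST1 (9.26e-04) passed with the block, and 1 gene of the exon junction complex was then higher, beside 0 without it.

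The largest standard errors of the 9 were those of UPF3B (0.093) and SMG8 (0.092), which also had the fewest counts. Fold changes on log2(FPKM + 1) are compressed at low levels by their construction.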
